A study of Mus musculus with 9 samples.

Results

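The genes described here are those whose transcript level lay above the control level in primary cultured mouse kidney cells treated with tumour necrosis factor alpha (TNF), and still lay above it when the compound ACHP was given together with TNF. They were chosen by a rule on their measured levels in the PBS, TNF and TNF with ACHP libraries, and 79 of the 57010 genes in the count table met it. The cells, called PCRC in the labels, were grown from digested kidneys of Wild-type mice. They were studied in 3 groups of 3 libraries: cells given PBS, cells given 20 ng/mL TNF, and cells given 20 ng/mL TNF with 1 µM ACHP, each for 6 hours. All groups share the Wild-type genotype, and no group received ACHP alone, so an effect of ACHP that does not need TNF cannot be told apart from one that does. A solvent for ACHP is not given in the sources used here, nor is the age of the mice, and it is not stated if replicates of a group came from separate mice or cultures. The p-values given below therefore measure only the spread between these libraries, which may be technical.

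TNF is a cytokine that binds receptors on the cell surface and, through adaptor proteins and the IκB kinase complex, frees NF-κB transcription factors to enter the nucleus, while mitogen-activated protein kinases act on AP-1 and other factors in parallel. In kidney tubule and stromal cells the pathway is known for switching on chemokines, adhesion molecules and its own inhibitors. ACHP is known as an inhibitor of IKKβ, the kinase subunit that marks the NF-κB inhibitor IκBα for destruction. The question the third group addresses is which part of the TNF response is kept when that kinase is inhibited.

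The rule worked on CPM, counts scaled by the total of their library. It asked for a TNF mean of at least 3 CPM, with the lowest TNF library and the lowest TNF with ACHP library both above the highest PBS library. The TNF mean had to be at least 15% above the PBS mean, and the TNF with ACHP mean at least 12% above the PBS mean and at least 0.9 of the TNF mean. Of the 57010 genes, 11358 had a TNF mean of at least 3 CPM. In 1396 of these every TNF library lay above every PBS library, which is 12.3% of them. In 3.83% every TNF library and every TNF with ACHP library did so. The thresholds on the ratios left 83 genes, and the rule then set aside symbols that begin with Cxcl, Ccl, Mmp, Nfkb or Il1 together with Grem1. The genes set aside at this step were Grem1, Cxcl1, Il11 and Nfkbib. Because the rule used all 9 libraries and every contrast between the groups, the levels and ratios of the 79 genes are given as a description, without a test.

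The differences were small. Over the 79 genes the TNF mean was 15.2% to 132% above the PBS mean, with a median of 20.9%, and the TNF with ACHP mean was 12.3% to 161% above it, with a median of 20.8%. The medians over all 11358 genes were -0.598% and 0.415%. A TNF over PBS ratio of at least 1.2 was found in 47 of the genes, of at least 1.3 in 15 and of at least 1.5 in 3. The TNF with ACHP mean was 0.904 to 1.35 of the TNF mean, with a median of 0.988, and was above the TNF mean in 35 genes and at or below it in 44. The libraries of the TNF and TNF with ACHP groups overlapped in 69 genes. Every TNF with ACHP library lay above every TNF library in 6 genes and below every TNF library in 4. The same shares over all genes were not counted, so nothing is read from these counts. Where the order of the treated groups is given below for a single gene, it is likewise only a description. For contrast, the adhesion molecules Vcam1 and Icam1, which are no members, showed a different pattern: Vcam1 was at 19.3 ± 1.25 CPM under PBS, 92.5 ± 6.94 under TNF (SD, n = 3) and 24.1, 19.1 and 19.9 under TNF plus ACHP, and Icam1 was at 8.71 ± 0.477, 34.2 ± 1.63 and 9.36 ± 0.724 CPM (SD, n = 3).

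**Figure D1:**
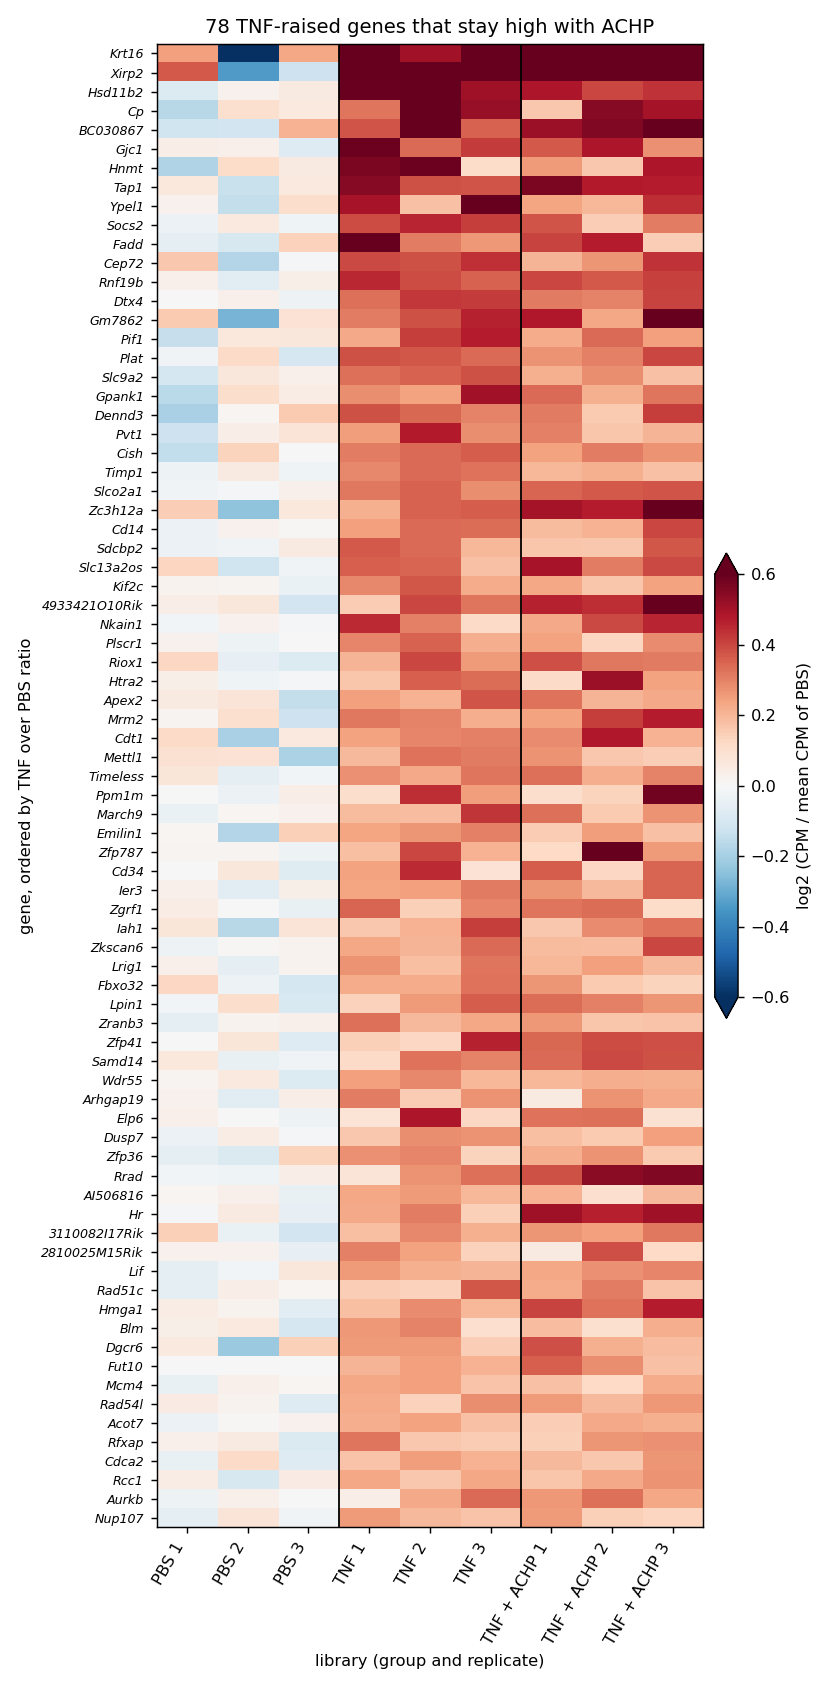
Each row is 1 of 78 of the 79 genes, ordered by its TNF over PBS ratio, and each column 1 library. The colour is the log2 of the library's CPM over the mean CPM of PBS, with colours saturating at 0.6. The 6 treated columns are above the PBS mean in every row because the rule asked for it; the strongest colours are at the top, with Krt16 and Xirp2.

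**Figure D2:**
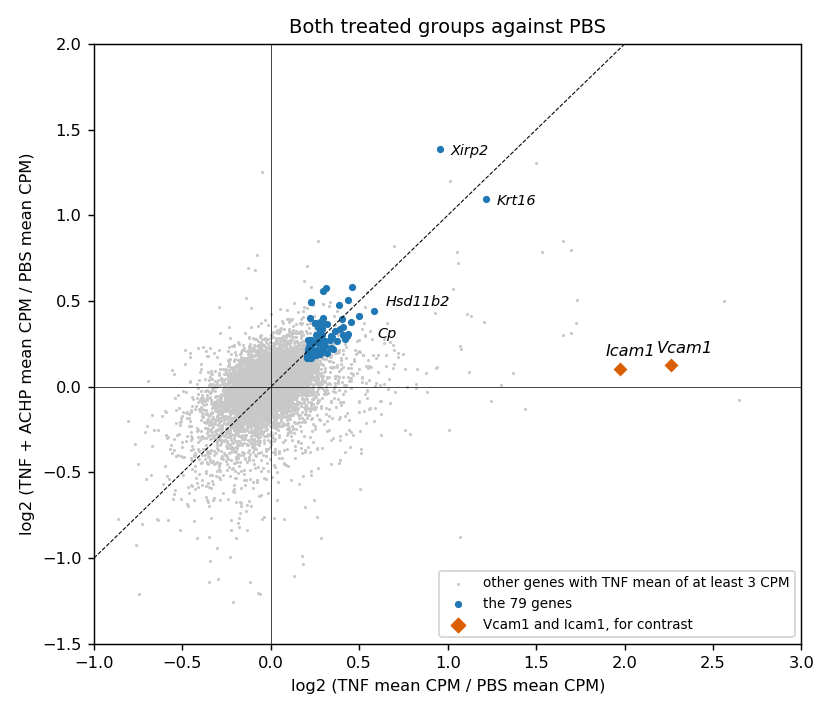
Each point is a gene with a TNF mean of at least 3 CPM, placed by the log2 ratio of its TNF mean (horizontal) and its TNF with ACHP mean (vertical) to its PBS mean; 31 genes fall outside the axes. The dashed line marks equal ratios. The 79 genes lie near the line and mostly close to the origin, whereas Vcam1 and Icam1 lie far to the right and near 0 on the vertical axis.

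The 79 genes lay on 20 chromosomes. In GRCm39, the assembly of the count table, and as whole genes from first to last exon, positions were Ier3 at chr17:36132576-36133815, Zc3h12a at chr4:125012216-125021633, Zfp36 at chr7:28076209-28079678, Fadd at chr7:144131055-144136200, Rnf19b at chr4:128952064-128979679, Lif at chr11:4207557-4222514, Socs2 at chr10:95221224-95253042, Tap1 at chr17:34406527-34416199, Plat at chr8:23247743-23272860, Timp1 at chrX:20736405-20740974, Slco2a1 at chr9:102865911-102973201, Hsd11b2 at chr8:106245387-106250620 and Mcm4 at chr16:15441761-15455264. Counts cover all exons of a gene. Some members were neighbours: Mettl1 and March9 were 8.6 kb apart on chromosome 10, Cd14 and Wdr55 33.4 kb apart on chromosome 18, and Ppm1m and Dusp7 168.9 kb apart on chromosome 9.

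Depth and cell make-up were checked once for all libraries. Library totals ran from 14194295 to 20892176 counts. Markers of T and B cells and of neutrophils summed to at most 1.26 and 0.893 CPM in any library, and Cd3e, Cd3d and Cd3g were at 0 in all of them. Fibroblast and mesangial markers summed to 851 to 975 CPM under PBS, 757 to 779 under TNF and 656 to 724 under TNF plus ACHP. Acta2 alone had means of 605, 523 and 467 CPM in the same order. Proximal tubule markers summed to 30.4 to 48.2 CPM, with Slc22a6, Miox and Acsm2 at 0 and Slc34a1 at 1 count in all libraries together, while Ggt1, Lrp2, Cubn and Aqp1 were at means of 27.4, 8.44, 8.02 and 2.57 CPM under PBS. Neuron markers summed to 25.2, 119 and 100 CPM in the PBS libraries, 51.4 to 86.2 under TNF and 23.7 to 25.4 under TNF plus ACHP. Astrocyte and oligodendrocyte markers summed to 131, 244 and 248 CPM under PBS, 167 to 198 under TNF and 117 to 122 under TNF plus ACHP. In both lists PBS replicate 1 lay apart from the other PBS libraries and nearer to the TNF plus ACHP libraries. The part of this difference in the ratios below was not tested. With PBS replicate 1 as the only PBS library, a choice made after seeing the data, the rule named 395 genes, among them 60 of the 79. In bulk RNA, fewer cells of a type and less RNA per cell cannot be told apart.

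How far the ratios hold beyond the libraries that chose the genes was described by leaving 1 replicate number out of all groups, applying the rule to the other 6 libraries and reading the 3 that were left out. With number 1 left out, 181 genes were chosen, and in 59.1% of them the left-out TNF and TNF with ACHP libraries both lay above the left-out PBS library, against 32.7% of all 11327 genes. With number 2 left out the shares were 60.8% of 166 chosen genes against 33.0%, and with number 3 left out 50.3% of 199 against 32.8%. The median excess of TNF over PBS was 21.9%, 20.5% and 21.5% in the libraries that chose the genes and 8.28%, 11.7% and 4.39% in the libraries left out. The median excess of TNF with ACHP over PBS was 20.2% to 22.1% in the former and 6.66% to 7.76% in the latter. The excess of genes chosen this way was thus smaller in libraries the choice had not used, and in each case above the median of all genes there, which lay between -1.09% and 1.08%.

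**Figure D3:**
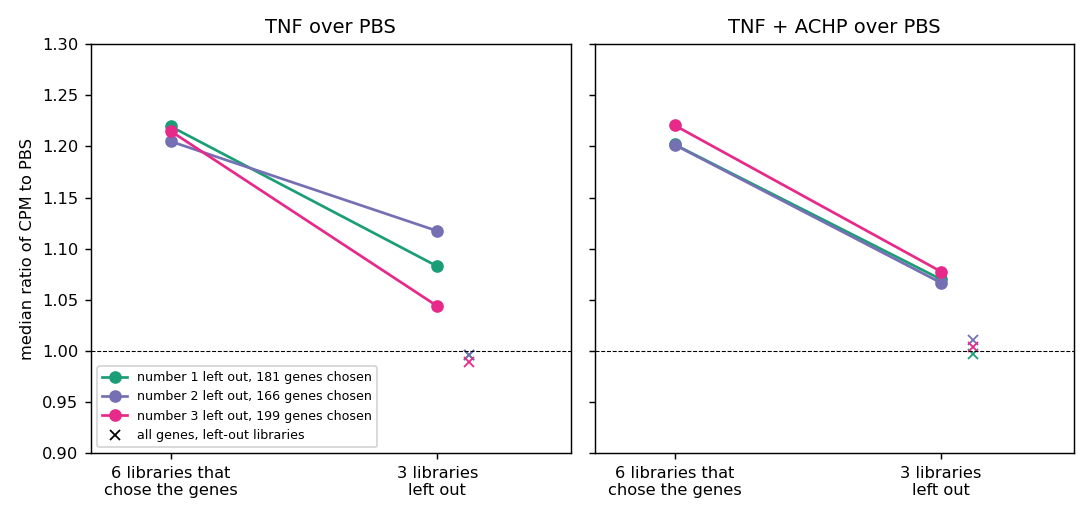
The vertical axis is the median ratio of CPM to PBS over the genes chosen, for TNF (left panel) and for TNF with ACHP (right panel); each line joins the 6 libraries that chose the genes to the 3 libraries left out, and crosses mark all genes in the left-out libraries. In the left-out libraries the medians are 4.39% to 11.7% above PBS for TNF and 6.66% to 7.76% for TNF with ACHP, against 20.2% to 22.1% in the libraries that chose.

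With 1 library left out at a time the rule named 81 to 175 genes. Leaving out PBS replicate 1 gave 144, PBS replicate 2 gave 128 and PBS replicate 3 gave 175. In the 9 recounts, 36 of the 79 genes were named every time, among them Xirp2, Tap1, Fadd, Rnf19b, Dtx4, Plat, Timp1, Slco2a1, Zc3h12a, Cd14, Plscr1, Ier3, Lrig1 and Dusp7. Krt16, Hsd11b2, Cp, Socs2, Lif, Mcm4 and Zfp36 were each lost in at least 1 recount. Leaving out a library cannot make the treated and PBS libraries of a member overlap, so members could be lost only through the thresholds on means. Being named every time therefore does not show how far a gene lies above PBS.

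In edgeR's quasi-likelihood fit over all 14747 genes with enough counts, with an adjusted p of under 0.05 as the call, 38 of the 79 genes were called higher with TNF than under PBS, beside 3.31% of all genes, and 39 were called higher under TNF plus ACHP than under PBS, beside 2.18%. Both calls were made for 30 of the 79, beside 0.665% of all genes, and neither for 32. Against TNF alone, 2 of the 79 were called higher under TNF plus ACHP and none lower in edgeR (3 lower at an unadjusted p under 0.05, and 0 called lower by DESeq2), beside 2.71% higher and 4.46% lower over all genes. DESeq2 made 0 calls as well wherever a count of 0 in edgeR is given below for a list over all 9 libraries. These contrasts are those the rule used, so nothing is read from the shares.

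Within the signalling genes, the regulators of NF-κB come first. Ier3, an immediate early gene that shapes survival after TNF, had the highest level per kilobase of exon among the 79 genes, at 267 CPM per kilobase with TNF. Its CPM was 256, 239 and 257 in the PBS libraries, 295, 298 and 312 under TNF, and 302, 287 and 320 under TNF plus ACHP. The treated libraries lay above all PBS libraries, as the rule required, and the 2 treated groups overlapped.

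Zc3h12a encodes Regnase-1, an RNase that cuts inflammatory mRNAs and is itself a target of NF-κB. Its level was 12.1, 9.27 and 11.4 CPM under PBS, 12.7 to 14.1 under TNF, and 15.4, 15.2 and 18.2 under TNF plus ACHP. The TNF with ACHP libraries were the highest and did not overlap those of TNF alone, and the TNF with ACHP mean was 48.8% above PBS, against 24.1% for TNF. The difference between the treated groups was not called in edgeR. Zfp36, which encodes tristetraprolin, a protein that binds AU-rich elements and speeds the decay of cytokine mRNAs, was at 15.9 ± 1.33 CPM under PBS, 18.7 ± 1.13 under TNF and 18.4 ± 0.713 under TNF plus ACHP (SD, n = 3). Its lowest treated library, at 17.4 CPM, was barely above its highest PBS library, also 17.4 CPM after rounding.

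Of the list of 21 NF-κB subunits and feedback genes, written with earlier results of these data known and holding Ier3 and Zc3h12a, 10 genes were called higher and 0 lower with TNF than under PBS, with a median log2 change of 0.35. With TNF and ACHP, 5 were called higher and 0 lower than PBS, with a median of 0.13, and 8 were called lower than with TNF alone. In both comparisons with PBS, 0 genes of this list were lower at an unadjusted p under 0.05 in edgeR. Without Ier3 and Zc3h12a, which the rule chose on these contrasts, 9 of the other 19 genes were called higher with TNF than under PBS, beside 3.31% of all genes. With TNF and ACHP, 3 of the 19 were, beside 2.18% of all genes. Nfkbia, which encodes IκBα, was 1.14 ± 0.058 higher in log2 under TNF than under PBS (edgeR estimate ± SE, adjusted p = 6.47e-11, higher in all 3 libraries than in any PBS library) and 0.42 ± 0.061 higher under TNF plus ACHP (edgeR, adjusted p = 0.000274). Tnfaip3, the ubiquitin editor A20, was 0.83 ± 0.039 lower in log2 under TNF plus ACHP than with TNF alone (edgeR, adjusted p = 1.82e-11). In both genes the 3 groups did not overlap.

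A receptor adaptor and a ubiquitin ligase, Fadd and Rnf19b, were also among the genes. Fadd is the death-domain adaptor that joins TNF receptor signalling to caspase-8. It was at 8.60, 8.37 and 9.85 CPM under PBS, 13.9, 11.1 and 10.7 under TNF, and 11.9, 12.4 and 9.91 under TNF plus ACHP, so its lowest treated library was only just above its highest PBS library. Rnf19b, an E3 ubiquitin ligase first known from natural killer cells, was at 93.8, 87.7 and 94.1 CPM under PBS, 126, 121 and 118 under TNF, and 121, 119 and 122 under TNF plus ACHP. In Rnf19b the PBS and treated libraries were well apart and the 2 treated groups overlapped, with means 32.0% and 31.4% above PBS. Of the list of 32 TNF receptor complex genes that holds Fadd, 6 were called higher and 0 lower with TNF than under PBS, beside 3.31% and 2.91% of all genes. Fadd was among the 6, and the rule had chosen it on that contrast. Of the other 31 genes, 5 were called higher. Under TNF plus ACHP 1 was called higher and 0 lower than under PBS, or 2 higher without PBS replicate 3. At an unadjusted p under 0.05 in edgeR, 0 and 2 genes were lower in these comparisons. Against TNF alone, 1 gene of the list was called higher and 5 lower under TNF plus ACHP, beside 2.71% and 4.46% of all genes. Birc3, an inhibitor of apoptosis that binds the receptor complex, was 0.73 ± 0.052 higher in log2 under TNF than under PBS (edgeR, adjusted p = 1.44e-08) and 0.55 ± 0.051 lower with ACHP added than with TNF alone (edgeR, adjusted p = 6.11e-07).

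Cytokine and cytokine feedback genes were Lif, Socs2 and Cish. Lif, a cytokine of the interleukin-6 family, was at 175, 179 and 190 CPM under PBS, 216, 210 and 209 under TNF, and 213, 219 and 222 under TNF plus ACHP. Socs2, an inhibitor of cytokine and growth hormone signalling, was at 41.1, 43.9 and 41.4 CPM under PBS, 55.3, 57.8 and 56.2 under TNF, and 54.7, 46.8 and 52.2 under TNF plus ACHP. For Socs2 every TNF with ACHP library was below every TNF library but above every PBS library, with a TNF with ACHP over TNF ratio of 0.908. Cish, a relative of Socs2 known as a STAT5 target, was at 11.8 ± 1.13 CPM under PBS, 14.9 ± 0.291 under TNF and 14.2 ± 0.318 under TNF plus ACHP (SD, n = 3), and 11.5% of its exon length overlaps genes on the opposite strand.

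Innate and antigen presentation genes included Tap1, Cd14 and Plscr1. Tap1 carries peptides into the endoplasmic reticulum for MHC class I, and was at 6.27, 5.47 and 6.24 CPM under PBS, 8.74, 7.82 and 7.78 under TNF and 8.88, 8.33 and 8.32 under TNF plus ACHP. Of the 17 MHC class I presentation genes tested, 6 were called higher and 0 lower with TNF than under PBS, beside 3.31% and 2.91% of all genes. Under TNF plus ACHP, 1 was called higher and 2 lower than under PBS, beside 2.18% and 3.87%. The 1 gene called higher there was Tap1 itself, which the rule had chosen on that contrast. The count of higher genes under TNF plus ACHP was 3 without PBS replicate 3 and 0 without PBS replicate 2. None of the 17 was lower with TNF at an unadjusted p under 0.05 in edgeR. Tap1 was also among the 6 called higher with TNF, and 5 of the other 16 genes were. Against TNF alone, 0 of the 17 were called higher and 8 lower under TNF plus ACHP, beside 2.71% and 4.46% of all genes. At an unadjusted p under 0.05 in edgeR, 0 were higher in that comparison. Plscr1, a membrane phospholipid scramblase induced by interferons, was at 124 ± 2.51 CPM under PBS, 152 ± 7.17 under TNF and 145 ± 7.87 under TNF plus ACHP (SD, n = 3).

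Cd14 is the coreceptor for bacterial lipopolysaccharide, and macrophages carry it. It was at 7.79 ± 0.163 CPM under PBS, 9.64 ± 0.352 under TNF and 9.39 ± 0.783 under TNF plus ACHP (SD, n = 3). Most other macrophage markers fell with ACHP. The summed level of the 16 macrophage markers, Cd14 included, was 47.2 to 53.3 CPM under PBS, 50.6 to 53.1 under TNF and 26.2 to 29.3 under TNF plus ACHP. Of the 12 tested, Cd14 included, 9 were called lower and 0 higher in edgeR under TNF plus ACHP than under PBS. The shares over all genes were 3.87% and 2.18%. At an unadjusted p under 0.05, 1 of the 12 was higher. Of the 11 tested markers other than Cd14, 9 were called lower. Adgre1, which encodes F4/80, was at 0.785 CPM under PBS and 0.117 under TNF plus ACHP, and Csf1r at 14.1 and 8.24 CPM. The part of cell make-up in the level of Cd14 was not tested.

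Kinase pathway regulators were Dusp7, Lrig1 and Ppm1m. Dusp7, a phosphatase of extracellular signal-regulated kinases, was at 60.2, 63.8 and 61.4 CPM under PBS, 69.1, 75.0 and 74.6 under TNF and 70.0, 68.9 and 73.2 under TNF plus ACHP. Lrig1, which promotes the breakdown of EGF receptor family members, was at 34.3 ± 1.14, 41.0 ± 2.01 and 39.8 ± 0.805 CPM in the same order (SD, n = 3). For Dusp7 and Lrig1 the 2 treated groups overlapped. Ppm1m, a protein phosphatase, was at 8.47 ± 0.220 CPM under PBS, 10.2 ± 1.21 under TNF and 10.3 ± 1.99 under TNF plus ACHP (SD, n = 3).

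**Figure D4:**
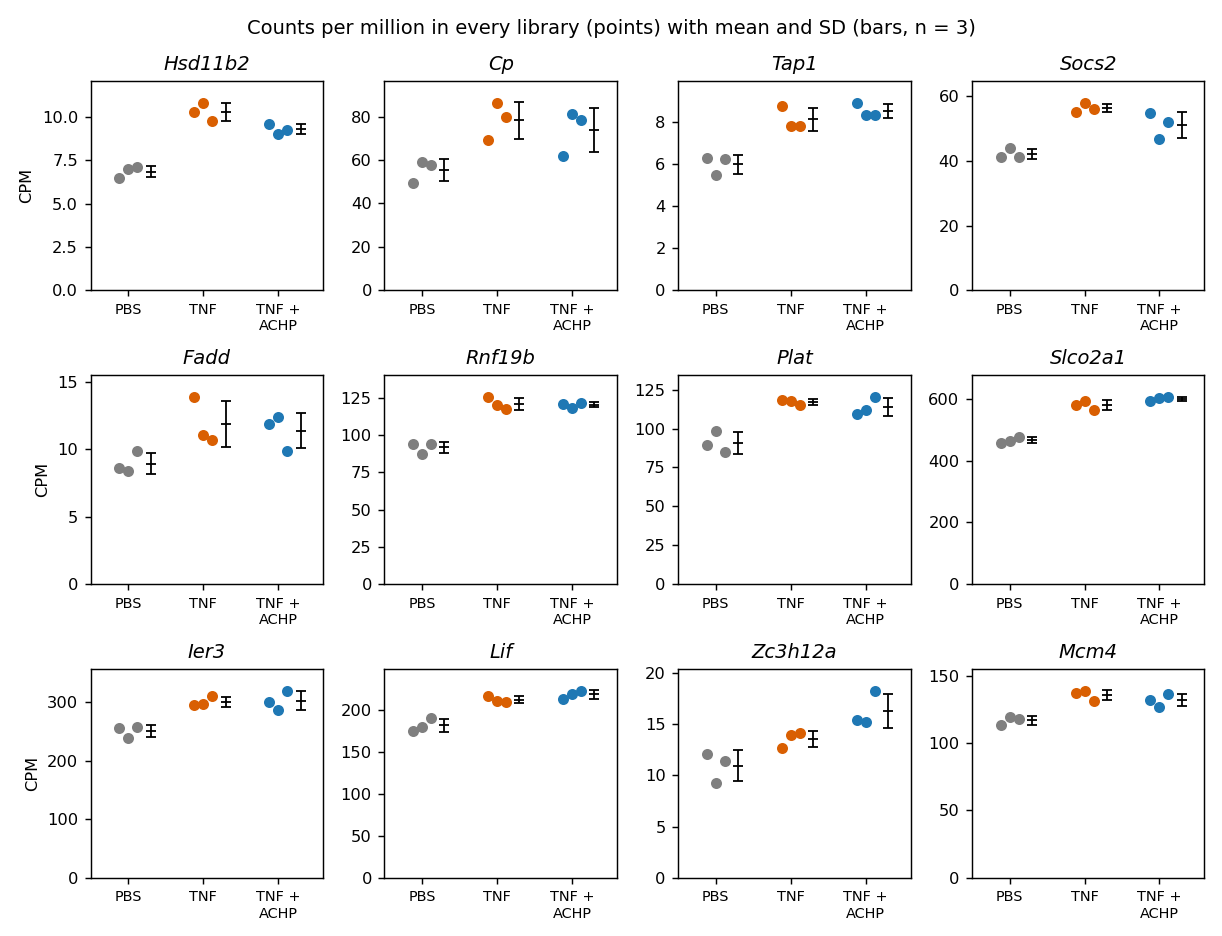
CPM of 12 of the genes in each of the 9 libraries (points), with mean and SD of the 3 libraries per group (black bars); each vertical axis starts at 0. In each panel the treated libraries are above the PBS libraries, as the rule required, and in Zc3h12a the TNF with ACHP libraries are also above the TNF libraries.

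The promoters of these genes were read for binding motifs because the rule did not use sequence. RefSeq promoter windows of GRCm38.p6, from 250 bases before the gene's start to 50 after it, were found for 50 of the 79 genes. The search covered both strands. The NF-κB consensus and the serum response element were searched as degenerate patterns, given here by name. The AP-1 motif was TGANTCA and the CREB motif was TGACGTCA. The core promoter box searched was TATAAA. The STAT motif was TTCNNNGAA, and the E2F motif was either TTTCCCGC or TTTGGCGC; these last motifs were added after the members were seen. The NF-κB consensus was present in 2 of the 50, which is 4.0%, against 6.30% of the windows of 10696 tested genes. The AP-1 motif was present in 8.0% against 6.53%, the serum response element in 4.0% against 1.58%, the CREB motif in 4.0% against 3.59%, the core promoter box in 8.0% against 8.95%, the STAT motif in 6 of the 50 against 8.26% of the tested genes and the E2F motif in 10.0% against 3.24%. A match describes letters, not a bound site, and none of the shares was tested.

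Of the 4 genes shown, Ier3 holds the NF-κB consensus 92 bases before its start, Zfp36 a serum response element 58 bases before and a STAT motif 17 bases before, Cish a pair of STAT motifs at bases 1 and 12 after the start, and Lif an AP-1 motif 228 bases before. They are shown as signalling members whose window holds a match. Capitals mark the matches; each stretch runs 5′ to 3′ on the gene's strand, from 250 bases before the start to 25 bases after it, and no match overlaps one of another motif. The stretches are chr17:35821463-35821737 (+) for Ier3, chr7:28379204-28379478 (-) for Zfp36, chr9:107296409-107296683 (+) for Cish and chr11:4257318-4257592 (+) for Lif.
Ier3: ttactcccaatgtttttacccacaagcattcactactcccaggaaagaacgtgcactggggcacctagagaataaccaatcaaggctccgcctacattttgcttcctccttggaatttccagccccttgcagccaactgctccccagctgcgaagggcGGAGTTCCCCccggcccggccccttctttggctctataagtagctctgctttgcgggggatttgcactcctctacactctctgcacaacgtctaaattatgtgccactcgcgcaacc
Zfp36: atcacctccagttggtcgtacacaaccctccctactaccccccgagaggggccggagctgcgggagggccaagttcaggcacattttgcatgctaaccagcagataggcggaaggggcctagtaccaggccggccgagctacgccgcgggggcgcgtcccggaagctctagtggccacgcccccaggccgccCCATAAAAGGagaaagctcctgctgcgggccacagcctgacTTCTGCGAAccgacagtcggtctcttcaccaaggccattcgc
Cish: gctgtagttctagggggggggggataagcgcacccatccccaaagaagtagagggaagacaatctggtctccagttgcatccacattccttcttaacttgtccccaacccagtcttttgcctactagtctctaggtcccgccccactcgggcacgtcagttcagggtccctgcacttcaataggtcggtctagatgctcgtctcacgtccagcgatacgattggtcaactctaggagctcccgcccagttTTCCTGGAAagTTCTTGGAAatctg
Lif: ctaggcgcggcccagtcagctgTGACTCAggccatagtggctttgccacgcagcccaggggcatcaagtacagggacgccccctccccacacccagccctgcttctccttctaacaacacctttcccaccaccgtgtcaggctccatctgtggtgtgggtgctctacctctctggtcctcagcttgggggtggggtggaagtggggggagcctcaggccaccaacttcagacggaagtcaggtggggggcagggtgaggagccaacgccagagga

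Besides Lif, the 79 genes held the secreted proteins Plat, Timp1, Cp and Emilin1. Plat encodes tissue plasminogen activator, a protease that turns plasminogen into plasmin, and was at 89.6, 98.5 and 84.7 CPM under PBS, 118, 118 and 115 under TNF, and 110, 112 and 120 under TNF plus ACHP. Timp1, an inhibitor of metalloproteinases, was at 47.3, 50.1 and 47.4 CPM under PBS, 59.0, 61.1 and 60.6 under TNF and 55.5, 56.0 and 54.6 under TNF plus ACHP, so all its TNF with ACHP libraries were between the PBS and the TNF libraries. Cp, the copper carrier ceruloplasmin, had 49.4 to 59.1 CPM under PBS, 69.2 to 86.0 under TNF and 61.9 to 81.0 under TNF plus ACHP. In all 4 genes the treated libraries lay above the PBS libraries, as the rule required. Emilin1, a glycoprotein of elastic fibres, was at 5.80 ± 0.635 CPM under PBS, 6.98 ± 0.156 under TNF and 6.63 ± 0.236 under TNF plus ACHP (SD, n = 3).

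Transporters, surface and junction proteins included the gene with the highest CPM of the set. Slco2a1, the prostaglandin transporter, was at 459, 463 and 477 CPM under PBS, 581, 596 and 566 under TNF and 595, 603 and 607 under TNF plus ACHP, with means 24.5% and 28.9% above PBS. Its groups were narrow, and the treated libraries overlapped each other. Gjc1, a gap junction connexin, was at 11.4 ± 0.505 CPM under PBS, 15.6 ± 1.40 under TNF and 14.8 ± 1.09 under TNF plus ACHP (SD, n = 3). Slc9a2, a sodium and hydrogen exchanger, was at 33.5, 37.7 and 36.7 CPM under PBS, 45.2, 45.9 and 46.8 under TNF and 41.6, 43.6 and 40.7 under TNF plus ACHP; every TNF with ACHP library was below every TNF library. Cd34, a sialomucin of stem and endothelial cells, was at 7.05, 7.37 and 6.68 CPM under PBS, 8.31, 9.60 and 7.46 under TNF and 9.06, 7.66 and 8.96 under TNF plus ACHP, with its treated groups overlapping. Nkain1, a partner of the sodium pump, was at 20.8 to 21.4 CPM under PBS, 22.7 to 28.6 under TNF and 24.6 to 28.8 under TNF plus ACHP.

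Metabolic enzymes were led by Hsd11b2, which inactivates cortisol and corticosterone and is a marker of the collecting duct. Hsd11b2 was at 6.48, 6.98 and 7.11 CPM under PBS, 10.3, 10.8 and 9.76 under TNF and 9.60, 9.05 and 9.27 under TNF plus ACHP, and had the lowest TNF with ACHP over TNF ratio, 0.904. Its TNF with ACHP libraries lay below all TNF libraries. The summed level of the 18 distal and collecting duct markers, of which it is one, was 150 to 156 CPM under PBS, 118 to 131 under TNF and 126 to 132 under TNF plus ACHP, lower in the treated groups, opposite in direction to Hsd11b2. The other 5 enzymes, among them Lpin1 and Acot7, had TNF means 15.9% to 35.5% above PBS. Lpin1, a phosphatidate phosphatase, was at 15.9 to 18.3 CPM under PBS, 18.7 to 21.9 under TNF and 20.4 to 21.5 under TNF plus ACHP, and Hnmt, which methylates histamine, at 2.95 ± 0.304 CPM under PBS, 4.00 ± 0.703 under TNF and 3.65 ± 0.427 under TNF plus ACHP (SD, n = 3).

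The largest set by role, assigned after the values were seen, was made of 15 genes of DNA replication, repair and mitosis, with median levels 19.2% and 17.9% above PBS. Mcm4, a subunit of the replicative helicase, was at 113, 119 and 118 CPM under PBS, 137, 139 and 132 under TNF and 132, 127 and 136 under TNF plus ACHP. Cdt1, the licensing factor that loads that helicase, was at 10.9 ± 1.21 CPM under PBS, 13.2 ± 0.302 under TNF and 13.7 ± 1.34 under TNF plus ACHP (SD, n = 3). Aurkb, the mitotic kinase of the chromosomal passenger complex, was at 21.1 ± 0.419, 24.4 ± 2.53 and 25.6 ± 0.897 CPM in the same order (SD, n = 3), and its lowest TNF library, 21.7 CPM, was close to its highest PBS library, 21.6 CPM. Kif2c, a kinesin that takes microtubules apart at centromeres, was at 36.9, 36.8 and 35.4 CPM under PBS, 44.5, 47.1 and 42.5 under TNF and 42.8, 40.9 and 43.0 under TNF plus ACHP. Its treated groups overlapped each other, and all treated libraries lay above all PBS libraries, as the rule required. Timeless, a partner of the replication fork, was at 13.8 ± 0.656 CPM under PBS, 16.7 ± 0.528 under TNF and 16.8 ± 0.665 under TNF plus ACHP (SD, n = 3). Blm, the RecQ helicase mutated in Bloom syndrome, was at 25.8 to 28.8 CPM under PBS, 29.7 to 34.0 under TNF and 29.6 to 32.1 under TNF plus ACHP. The recombination genes Rad51c and Rad54l were also members. Rad54l was at 13.5 ± 0.628 CPM under PBS, 15.6 ± 0.746 under TNF and 15.9 ± 0.394 under TNF plus ACHP (SD, n = 3), and 15.4% of its exon length overlaps Lrrc41 on the opposite strand. Pif1, a helicase of telomeres and mitochondria, was at 5.64, 6.48 and 6.51 CPM under PBS, 7.27, 8.28 and 8.61 under TNF and 7.23, 7.85 and 7.37 under TNF plus ACHP. Apex2, a base excision repair nuclease, was at 11.6 ± 0.945 CPM under PBS, 14.1 ± 0.873 under TNF and 13.8 ± 0.621 under TNF plus ACHP (SD, n = 3). Cep72, a centrosome protein, was at 5.23 ± 0.607 CPM under PBS, 6.93 ± 0.133 under TNF and 6.45 ± 0.538 under TNF plus ACHP (SD, n = 3).

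Genes of the cell cycle list, which holds members of the rule, were read next. Of its 71 genes, 31 were called higher and 1 lower with TNF than under PBS, with a median log2 change of 0.19, beside 3.31% of all genes called higher and 2.91% lower. Without TNF replicate 1, and likewise without TNF replicate 2, 14 were called higher. With TNF and ACHP, 8 were called higher and 0 lower than PBS, beside 2.18% and 3.87% of all genes, with a median of 0.09 and 1 lower at an unadjusted p under 0.05 in edgeR; the count was 4 under DESeq2 and 2 without TNF with ACHP replicate 3. Against TNF alone, 1 was called higher and 7 lower with ACHP. The members Aurkb, Cdt1 and Mcm4 are in the list, and the rule chose them on the contrasts with PBS. Of the other 68 genes, 30 were called higher with TNF than under PBS, and 5 with TNF and ACHP. 

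Among transcription and chromatin genes, Hr and Hmga1 lay higher with ACHP than with TNF alone. Hr, the hairless corepressor, was at 19.6, 20.4 and 19.0 CPM under PBS, 23.1, 24.4 and 21.7 under TNF and 28.0, 27.2 and 28.0 under TNF plus ACHP. Hmga1, an architectural chromatin protein whose near-identical gene copies make its count uncertain, was at 101, 98.9 and 93.2 CPM under PBS, 111, 119 and 112 under TNF and 129, 122 and 135 under TNF plus ACHP. In both, the 3 groups did not overlap, in the order PBS, TNF, TNF with ACHP. The same held for Rrad, a small GTPase of the RGK family, at 13.2, 13.2 and 13.8 CPM, 14.2, 16.2 and 16.8 CPM, and 17.4, 19.5 and 19.7 CPM, and for Samd14, at means of 9.50, 11.3 and 12.3 CPM. Hr, Hmga1, Rrad and Samd14 were named for their large TNF with ACHP over TNF ratios, so their order follows in part from that choice. Hr and Hmga1 were the 2 of 79 members that edgeR called higher with ACHP than with TNF alone, beside 2.71% of all genes. Rrad and Samd14 were not called.

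The largest ratios of all belonged to 2 genes of low level. Xirp2, an actin-binding protein of muscle, had 35, 27 and 32 counts under PBS, 61, 50 and 70 under TNF and 92, 91 and 79 under TNF plus ACHP, and means of 1.91, 3.70 and 4.99 CPM. Krt16, a keratin of stressed epidermis, was chosen for mention after its values were seen and had 22, 15 and 28 counts under PBS, 65, 28 and 58 under TNF and 47, 46 and 52 under TNF plus ACHP. Their levels, 94.1% and 161% above PBS for Xirp2 and 132% and 113% above it for Krt16, rest on few counts; the PBS libraries of Krt16 alone spread from 0.837 to 1.55 CPM.

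The remaining groups were 6 genes of RNA modification, ribosome assembly and the nuclear pore, with TNF means 15.4% to 22.2% above PBS, 12 genes of ubiquitin, protease, GTPase and other roles, 16.5% to 35.0% above it, and 8 noncoding or uncharacterised genes, 17.1% to 37.7% above it. Dtx4, an E3 ligase of the Notch pathway, was at 56.4, 57.7 and 55.3 CPM under PBS, 71.0, 75.6 and 75.4 under TNF and 70.1, 69.3 and 74.8 under TNF plus ACHP. Fbxo32, the muscle atrophy ligase atrogin-1, was at 15.6 ± 1.29 CPM under PBS, 18.6 ± 0.789 under TNF and 17.7 ± 0.849 under TNF plus ACHP (SD, n = 3). The transcript AI506816 was at 188 ± 4.99 CPM under PBS, 220 ± 4.61 under TNF and 211 ± 8.53 under TNF plus ACHP (SD, n = 3). Reads of 10 of the 79 genes may be shared with a gene on the opposite strand over more than 10% of their exon length, at most 43.7% for Htra2, and the counting does not record strand. Among the RNA genes, Mettl1, which methylates guanosine in transfer RNA, was at 20.0 ± 2.16 CPM under PBS, 24.2 ± 1.17 under TNF and 22.9 ± 1.05 under TNF plus ACHP (SD, n = 3). Nup107, a scaffold protein of the nuclear pore, was at 57.2 ± 2.85 CPM under PBS, 66.0 ± 2.02 under TNF and 64.6 ± 3.18 under TNF plus ACHP (SD, n = 3). Dennd3, an exchange factor for a Rab GTPase, was at 8.67, 9.99 and 11.1 CPM under PBS, 12.9, 12.6 and 12.2 under TNF and 12.3, 11.1 and 13.2 under TNF plus ACHP, so that its lowest TNF plus ACHP library was only just above its highest PBS library. Pvt1, a noncoding RNA beside Myc, was at 11.2 ± 0.810 CPM under PBS, 14.2 ± 1.22 under TNF and 13.1 ± 0.630 under TNF plus ACHP (SD, n = 3).

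The thresholds were met narrowly by some genes. Just inside the 15% threshold for TNF lay Nup107 at 15.4%, and just outside it Cpa4 at 14.9987% and Zfp219 at 14.8%. Just inside the 12% threshold for TNF with ACHP lay AI506816 at 12.3%, and just outside it Kif23 at 11.9698% and E2f7 at 11.8%. Just outside the TNF with ACHP over TNF threshold of 0.9 were Vash2 at 0.898 and Psme2 at 0.894, with Hsd11b2 at 0.904 and Socs2 at 0.908 just inside it.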

How the data were processed

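RNA of 9 libraries was sequenced by the submitters. The deposited table holds read counts per gene, made by the authors with featureCounts 2.0.1 on the GRCm39 Ensembl 109 annotation, per the file headers; the command shows no strand option. The submitters' processing notes name STAR, featureCounts, DESeq2 and mm10, which differs from the header. Symbols were joined by gene identifier for 52029 of the 57010 genes, which hold 99.6% of counts. The rule used CPM from library totals. Tests used edgeR 4.0.16 in R 4.3.3 (TMM, filterByExpr, quasi-likelihood over all 9 libraries, Benjamini-Hochberg over 14747 genes), checked on simulated data. DESeq2 1.42.0, other scalings, other thresholds and left-out libraries were alternatives. Libraries of a group differed beyond sampling noise (chi-square per degree of freedom 1.87 to 6.53), so none was a duplicate. Among the genes of the rule, those named have the 14 largest TNF over PBS ratios at 5 CPM or more, the 8 highest levels, the 6 largest TNF with ACHP over TNF ratios, up to 3 per pathway list, and the 2 on each side of a threshold; beside them up to 2 other genes per list, and Vcam1 and Icam1. The 79 genes and all lists were chosen with earlier results of these data known. Krt16, Cish, Cd14, Hnmt, Pvt1, Kif2c, Nkain1, Htra2, Apex2, Mettl1, March9, Timeless, Ppm1m, Emilin1, Lpin1, Wdr55, Rad51c, Rad54l, Blm, Acot7, Adgre1 and Csf1r fall outside the rule for named genes and were chosen after their values were seen. The values of 1 of the 79 genes are not reported here.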

Additional observations from a re-analysis of the deposited data

How the results depend on the processing

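Because the rule asked every treated library to lie above every PBS library, the direction of a member's ratio is fixed by the choice and says nothing of stability. The number of genes meeting the rule was 8 with both ratios to PBS at 1.3 or more, 175 with the ratios alone and no demand on overlap, 119 with a replicate block, in which each treated library is set against the PBS library of its number, 81 to 199 with 1 library or 1 number left out, and 395 with PBS replicate 1 as the only PBS library. TMM and RLE scaling gave 104 and 100, which held all 79, and with counts thinned to the smallest library total the rule again named 79 genes, of which 59 were among the original 79. Same-numbered libraries deviated together only weakly, with r from -0.15 to 0.19, which does not settle if the numbers pair them. With the replicate block, 512 genes were called higher with TNF than with PBS and 372 with TNF and ACHP. Without it the counts were 488 and 321. Over left-out libraries, genes called higher and lower with TNF than PBS were 252 to 508 and 216 to 478, with TNF and ACHP than PBS 134 to 427 and 357 to 731, and with TNF and ACHP than TNF 157 to 527 and 384 to 824. The lowest counts came without TNF replicate 1 (TNF against PBS), without TNF replicate 2 (TNF with ACHP against TNF) and, for TNF with ACHP against PBS, without TNF with ACHP replicate 3 (higher) and PBS replicate 2 (lower). At least 1 count fell by over 1.5 times without TNF replicate 3 or TNF with ACHP replicate 2 as well. Without a count filter 862 were called lower with TNF and ACHP than with PBS. In the 100 bases before the start alone, the AP-1 motif was in 2.0% of the 50 promoters against 2.41% of all tested genes, E2F in 2.0% against 1.22%, NF-κB in 2.0% against 2.16%, the serum response element in 2.0% against 0.645%, CREB in 4.0% against 2.47%, the core promoter box in 6.0% against 3.30% and STAT in 6.0% against 2.74%. With the rule applied to 8 libraries, the share of chosen genes whose left-out library lay on the side the rule asks for (a PBS library below every treated library, a treated library above every PBS library) was 61.1%, 62.5% and 47.4% for PBS replicates 1, 2 and 3, against 17.2%, 18.2% and 17.8% of all genes. It was 83.3%, 88.9% and 80.7% for TNF, against 26.6%, 26.7% and 25.3%, and 85.7%, 82.1% and 87.1% for TNF with ACHP, against 25.4%, 30.7% and 32.3%. The libraries on the other side of each comparison had helped choose the genes, which raises these shares by construction. All genes are thus no like baseline for them. With TMM scaling the share was 91.5% for TNF with ACHP replicate 1 and 52.8% for PBS replicate 3. The cause of these shifts was not tested. Depth and the spread between libraries (CV 4.01% in edgeR's common dispersion) were not separated as limits on ratios near 1.2.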
